A study of Homo sapiens with 18 samples.

Results

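The MYC network and TERT were followed in Hep3B cells, a human hepatoma line that is derived from 1 tumor. The 10 genes were chosen by name: the MYC family (MYC, MYCN and MYCL), their shared partner MAX, the MAX-binding repressors MXD1, MXD3, MXD4, MXI1 and MNT, and TERT, the catalytic subunit of telomerase. The 10 genes and the gene lists below were chosen with earlier results of these data known. Their adjusted p and shares of calls are therefore not those of a blind choice. TERT in particular was selected on these data, since its higher count at the highest fucoxanthin concentration was known when the 10 genes were listed. All 10 are among the 36684 gene symbols of the count table, and 9 of them (all but MYCN) are among the 14557 genes with enough counts to be tested. The 18 RNA-seq libraries, made from polyadenylated RNA, fall into 6 groups of 3 biological replicates: untreated control cells (Con), cells given free fatty acids alone (FFA, Model), FFA with fucoxanthin (FUCO, an algal carotenoid) at 0.5, 1 or 2 μM (FUCO-0.5, FUCO-1, FUCO-2), and FFA with Resmetirom (RES), an agonist of thyroid hormone receptor β that served as positive control. Every group other than Con thus received FFA, and the 4 treated groups were compared with the same 3 Model libraries. The FFA concentration, the treatment times and the RES dose of these libraries are not given in the sources used here.

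MYC, MYCN and MYCL are basic helix-loop-helix leucine zipper factors that bind DNA as dimers with MAX, mostly at the E-box CACGTG, and raise transcription of genes for ribosome assembly, nucleotide synthesis and growth. MXD1, MXD3, MXD4, MXI1 and MNT compete for MAX and for the same E-box and recruit SIN3 and histone deacetylase complexes, which lower transcription. MYC messenger RNA and protein are short-lived, and MYC is an early responder to growth factors in hepatocytes. TERT is silent in most adult hepatocytes, is commonly switched on in hepatocellular carcinoma, and is among the genes at whose promoter MYC and MAX are known to bind an E-box.

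The E-boxes in the promoters of the network's own genes are shown because they are the sites over which activators and repressors compete. In RefSeq promoter windows of GRCh38.p14, which run from 250 bases before to 50 bases after a start site, 9 of the 10 genes were searched in 12 windows, and MYC was not shown. The motif CACGTG, which reads the same on both strands, was present in 3 windows, those of MXD4, TERT and MNT, against 7.26% of the 35116 windows of all genes. The 3 stretches follow 5′ to 3′ on the gene's strand, which is the minus strand for all 3, with the E-box in capitals. They lie at chr4:2262318-2262359 for MXD4, at chr5:1295202-1295255 for TERT and at chr17:2401224-2401277 for MNT.
MXD4: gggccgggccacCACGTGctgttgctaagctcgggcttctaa
TERT: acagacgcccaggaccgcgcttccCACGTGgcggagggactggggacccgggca
MNT: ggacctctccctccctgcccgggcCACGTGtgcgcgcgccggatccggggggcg
The E-box starts 238 bases before the start site of MXD4, 163 bases before that of TERT and 193 bases before that of MNT. The TERT window ends in the letters CACGT, and a match that runs past the edge of a window was not counted. The ETS core CCGGAA, searched on both strands, was in 3 of the 12 windows and in 17.2% of all windows, and the GC box GGGCGG was in 11 of the 12 and in 45.0% of all. The 12 windows were rich in G and C, with 55.0% to 77.3% of these bases. These are matches of letters, and no binding was measured.

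The libraries held 16916688 to 23083498 counts each. All 8 hepatocyte markers examined were present in every library, among them ALB at 7411 to 43307 CPM and HNF4A at 227 to 377 CPM (CPM, a gene's share of its library after TMM scaling). The blood markers PTPRC, CD3E and CD68 held at most 7 counts in any library, ACTA2 held 0 (under the 3 counts that a count of 0 allows) and VWF at most 1, while the stromal and endothelial genes COL1A1 held 12 to 56, COL1A2 0 to 27 and PECAM1 3 to 36. The RES libraries stood apart from all others on the first principal component, which held 47.0% of the variance. Con replicate 1 lay apart from the other Con libraries on the second, at 21.0 against 34.6 and 31.8. The fold changes of MYC against Con, and some counts of lists, are therefore also given without it. In bulk RNA, fewer cells of a type and less RNA per cell cannot be told apart.

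Per length of all annotated exons merged, MYC was the most abundant of the 10 genes in every group but FUCO-0.5 and FUCO-1. It was higher in Model than in Con and lower again at the 2 lower FUCO concentrations. MYC held 4735, 3200 and 3549 counts in the Con libraries and 5836, 6092 and 6255 in Model. With 0.5 μM FUCO it held 3480, 3574 and 3411 counts and with 1 μM 4227, 3439 and 3302. These libraries all lay below Model, at the level of Con replicates 2 and 3. With 2 μM FUCO the 3 libraries held 5298, 6157 and 3976 counts, so the first and second were near Model and the third lay between Model and FUCO-1. With RES MYC held 9220, 7114 and 6917 counts, the first in the deepest of the 18 libraries. As normalized levels these were 219 ± 47.4 CPM in Con, 333 ± 10.8 in Model, 189 ± 2.22 in FUCO-0.5, 195 ± 12.2 in FUCO-1, 288 ± 51.2 in FUCO-2 and 359 ± 32.2 in RES (mean ± SD, n = 3 here and below). In the order of these levels (RES, Model, FUCO-2, Con, FUCO-1, FUCO-0.5), the libraries of each group overlapped with those of the next.

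**Figure D1:**
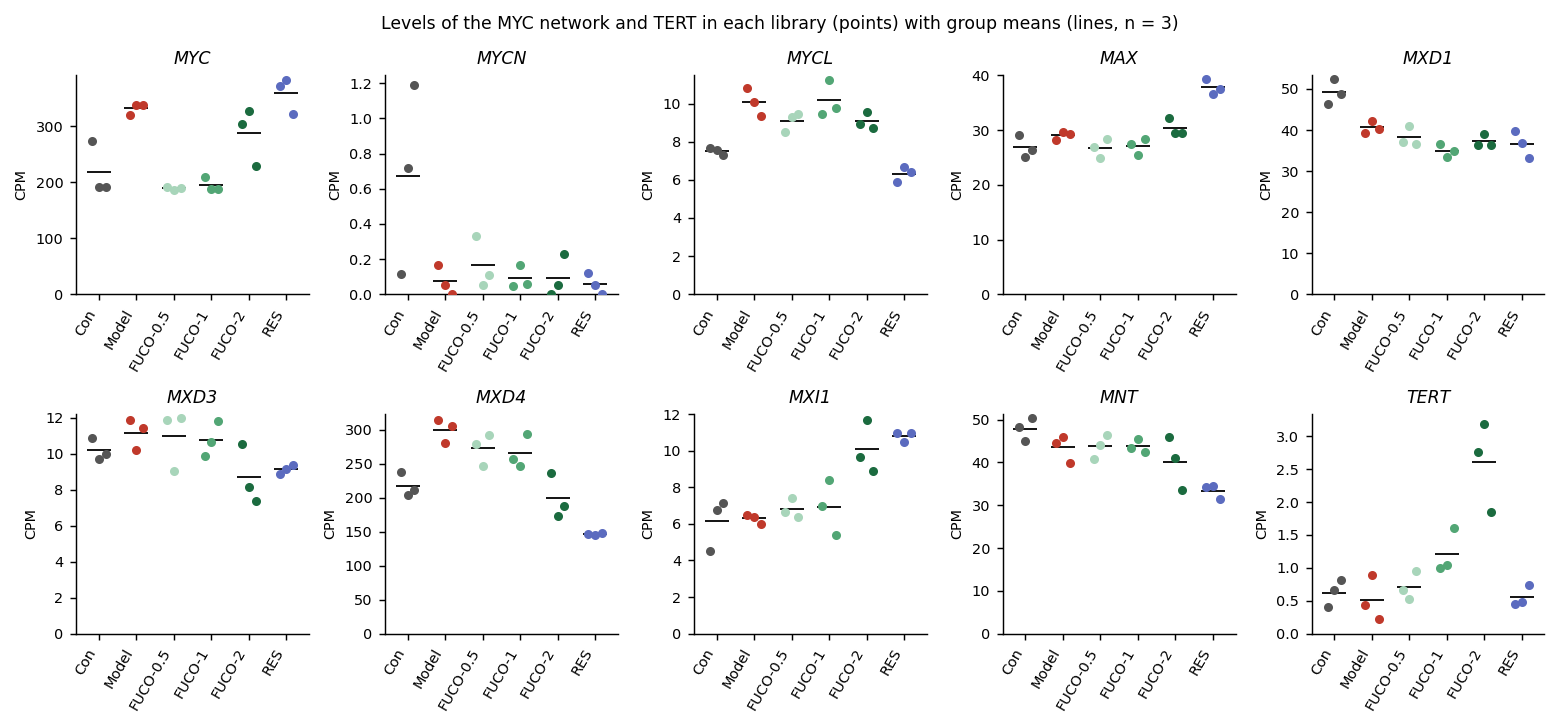
Level in CPM (vertical axes from 0, a scale for each gene) of the 10 genes in every library (points, coloured by group) with the mean of each group of 3 (lines). MYC falls from 333 CPM in Model to 189 and 195 at 0.5 and 1 μM FUCO, MXD4 falls from 300.0 CPM in Model to 199 in FUCO-2 and 146 in RES, and TERT is highest in FUCO-2 at 2.60 CPM.

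In edgeR's quasi-likelihood fit of all 18 libraries, a gene was called higher or lower where its Benjamini-Hochberg adjusted p over all 14557 genes was under 0.05. The first comparison, Model against Con, asks what FFA changed. Of all genes, 17.6% were called, and of the 9 members tested 4 were, 3 of them higher and 1 lower. MYC was 1.52-fold higher in Model (log2 fold change 0.60, SE 0.116, edgeR adjusted p = 0.000682). Leaving out Con replicate 1, the Con library with the highest MYC, raised this log2 fold change to 0.79. The median of the members' log2 fold changes was 0.12, and that of all genes 0.00.

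MYCL, the family member first described in lung cancer, was also higher in Model. It held 133, 127 and 135 counts in Con against 197, 181 and 173 in Model, with no overlap (log2 fold change 0.42, SE 0.112, edgeR adjusted p = 0.00985). Without Model replicate 1 the adjusted p of MYCL was 0.0576. MYCN, which is mostly known from neuroblastoma, was near absent: it held 2, 12 and 22 counts in Con and 0 to 6 counts in each of the other 15 libraries, and it was not tested in the main fit. Where a library held 0 counts, up to 3 counts could have been missed. The higher MYCN counts were those of Con replicates 2 and 3, the pair that lay together on the second principal component.

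Among the repressors, MXD4 rose and MXD1 fell in Model. MXD4 held 4113, 3403 and 3898 counts in Con and 5739, 5045 and 5627 in Model (217 ± 18.1 against 300.0 ± 17.5 CPM, log2 fold change 0.47, SE 0.0959, edgeR adjusted p = 0.00129). MXD1, which is induced as many cell types differentiate, held 803, 880 and 904 counts in Con and 718, 759 and 745 in Model. The 2 groups of MXD1 libraries did not overlap (log2 fold change -0.28, SE 0.0799, edgeR adjusted p = 0.0172), but the call was lost in 3 of the fits that left out a library, and without Con replicate 2 the adjusted p was 0.1003. MAX (0.12, adjusted p = 0.356), MXD3 (0.13, adjusted p = 0.535), MXI1 (0.04, adjusted p = 0.910), MNT (-0.14, adjusted p = 0.332) and TERT (-0.29, adjusted p = 0.718) did not pass the test in edgeR on the log2 scale.

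FUCO-0.5 and FUCO-1 against Model ask what the lower concentrations of FUCO changed in FFA-treated cells. In FUCO-0.5 against Model 1.45% of all genes were called, and in FUCO-1 against Model 3.21%. MYC was the only member called in either comparison, of 9 tested in each. It was 0.570 times its Model level in FUCO-0.5 (log2 fold change -0.81, SE 0.117, edgeR adjusted p = 0.000107) and 0.587 times in FUCO-1 (-0.77, SE 0.117, adjusted p = 0.000168). These 2 comparisons share the Model libraries. Against Con, MYC was not called in either group (log2 fold change -0.21, edgeR adjusted p = 0.212 in FUCO-0.5, and -0.16, adjusted p = 0.361 in FUCO-1), and without Con replicate 1 these values were -0.015 and 0.03. As levels, the FUCO-0.5 libraries of MYC lay just below all 3 Con libraries, and those of FUCO-1 overlapped with them. In FUCO-1 against FUCO-0.5, 0.00687% of all genes were called, 1 gene, and 0 of the 9 members by edgeR. None of the 9 had an unadjusted p under 0.05 there, and DESeq2 called 0 of them too.

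With 2 μM FUCO, MYC was not called against Model, while MXD4 fell and MXI1 rose. FUCO-2 against Model called 20.5% of all genes and 2 of the 8 members tested there. MYC had a log2 fold change of -0.21 (SE 0.116, edgeR adjusted p = 0.214), and the value ran from -0.31 without FUCO-2 replicate 2 (adjusted p = 0.0938) to -0.07 without FUCO-2 replicate 3 (0.705). MXD4 held 4107, 3246 and 3245 counts in FUCO-2, all below the 3 Model libraries (0.663 times, log2 fold change -0.59, SE 0.0961, edgeR adjusted p = 0.000110). MXI1, a repressor also known as MXD2, held 118, 115 and 111 counts in Model and 168, 219 and 154 in FUCO-2. All FUCO-2 libraries of MXI1 were above Model (1.60-fold, log2 fold change 0.68, SE 0.157, edgeR adjusted p = 0.00318). MXD3 had a log2 value of -0.36 (SE 0.133, adjusted p = 0.0541), and it passed the threshold in 4 of 25 alternative fits, among them the one without FUCO-2 replicate 1 (-0.52, adjusted p = 0.00906). MYCL, MAX, MXD1 and MNT had log2 fold changes from -0.15 to 0.06, with edgeR adjusted p from 0.299 to 0.645.

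Between the 2 higher concentrations the network moved in 3 genes. FUCO-2 against FUCO-1 called 6.3% of all genes and 3 of the 8 members tested. MYC was 1.47-fold higher in FUCO-2 (log2 fold change 0.56, SE 0.117, edgeR adjusted p = 0.00502), and its adjusted p was 0.0469 without FUCO-2 replicate 2. MXD4 was lower (-0.42, SE 0.0960, adjusted p = 0.00979) and MXI1 higher (0.54, SE 0.155, adjusted p = 0.0365) in the same edgeR fit. The calls of MXD4 and MXI1 were lost without FUCO-1 replicate 3 (adjusted p = 0.0752 and 0.206) and without FUCO-2 replicate 2 (adjusted p = 0.0842 and 0.206). That of MXI1 was also lost without FUCO-1 replicate 1 (0.0896) and in a fit of the 2 groups alone (0.0546).

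**Figure D2:**
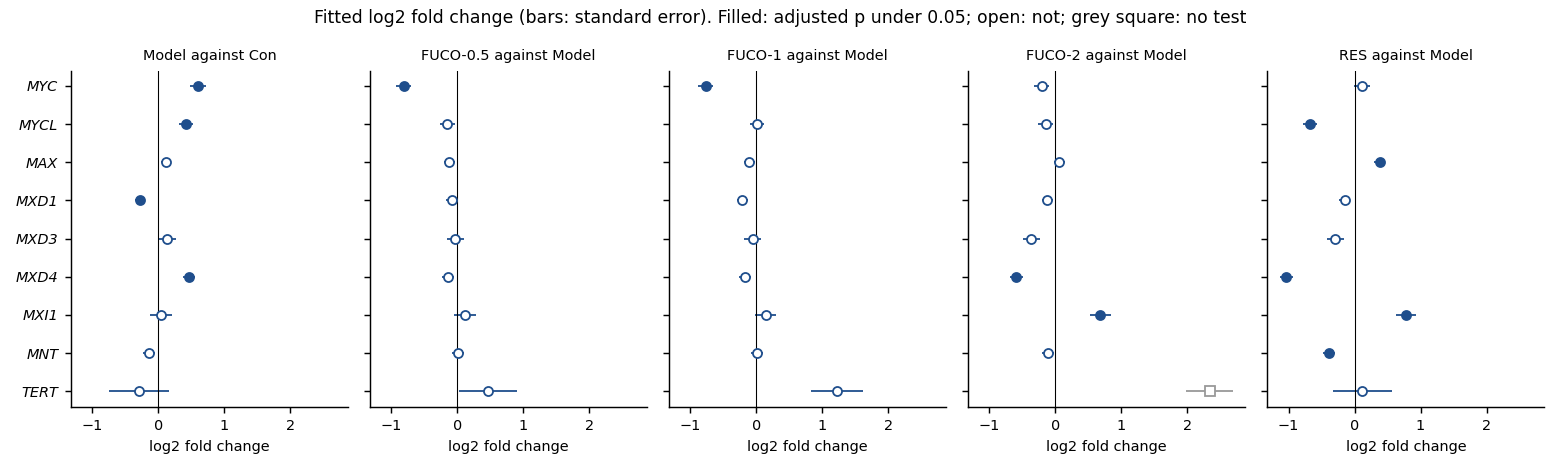
Log2 fold change of the 9 members in the fit (horizontal axes, bars are standard errors) in the 5 comparisons, with filled points for an edgeR adjusted p under 0.05, open points for the rest and a grey square for TERT in FUCO-2, which has no test. MYC is filled on the low side in FUCO-0.5 and FUCO-1 only (-0.81 and -0.77), whereas MXD4 and MXI1 are filled in FUCO-2 (-0.59 and 0.68) and RES (-1.03 and 0.78).

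With RES, the positive control, MXI1 and MAX rose and MXD4, MNT and MYCL fell. RES against Model called 49.4% of all genes and 5 of the 9 members, 2 higher and 3 lower, so the members were called about as often as genes at large. MXD4 held 3626, 2700 and 3163 counts with RES, or 146 ± 1.09 CPM, and was the only member past both the test and an absolute log2 fold change of 1 (-1.03, SE 0.0969, edgeR adjusted p = 3.51e-09). MNT, the repressor that is expressed in most tissues, held 813, 828 and 738 counts in Model and 846, 641 and 673 in RES, where replicates 1 and 3 were deeper than the Model libraries, which is 43.5 ± 3.18 against 33.4 ± 1.71 CPM (-0.38, SE 0.0933, adjusted p = 0.00141). MXI1 held 271, 195 and 235 counts with RES and was higher than in Model (0.78, SE 0.154, edgeR adjusted p = 0.000172).

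MAX and MYCL also changed with RES. MAX held 515, 534 and 541 counts in Model and 976, 678 and 802 with RES, where its level was 37.8 ± 1.49 CPM against 29.1 ± 0.755 in Model (log2 fold change 0.38, SE 0.0798, edgeR adjusted p = 0.000356). MYCL fell from 10.1 ± 0.717 to 6.32 ± 0.395 CPM (-0.68, SE 0.111, edgeR adjusted p = 2.03e-05), and its RES libraries of 146, 124 and 137 counts were all below Model and, as levels, below Con. MYC itself stood at 0.11 on the log2 scale (SE 0.115, adjusted p = 0.445), MXD1 of -0.15 (adjusted p = 0.126) and MXD3 of -0.29 (adjusted p = 0.0645). MAX lies at chr14:65006101-65102695 and overlaps FNTB (89 to 142 counts per library), and MXD3 lies at chr5:177305499-177312752 and overlaps PRELID1 (813 to 1541 counts). Whether the counting used the strand is not given in the sources used here, so part of the MAX and MXD3 reads could belong to these neighbours.

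The treated groups were also set against Con, which differs from them by FFA and the treatment together. The comparisons called 21.9% of all genes and 2 of 9 members in FUCO-0.5, 18.3% and 3 of 9 in FUCO-1, 24.8% and 4 of 8 in FUCO-2, and 57.3% and 6 of 9 in RES. MXD1 was lower than in Con in all 4, with log2 fold changes of -0.36, -0.49, -0.40 and -0.43 (edgeR adjusted p of 0.00175, 9.95e-05, 0.000618 and 6.70e-05). MXD4 was above Con with FUCO-0.5 (0.33, edgeR adjusted p = 0.0160) and FUCO-1 (0.29, adjusted p = 0.0351), at -0.13 with FUCO-2 (adjusted p = 0.372) and below Con with RES (-0.57, adjusted p = 2.09e-05). Each of the 2 higher calls of MXD4 was lost in 4 of the fits that left out a library, where the adjusted p reached 0.0804 in FUCO-0.5 (without Con replicate 2) and 0.167 in FUCO-1 (without FUCO-1 replicate 3). MYC was above Con in FUCO-2 (0.39, edgeR adjusted p = 0.0146) and RES (0.72, adjusted p = 1.21e-05), and the FUCO-2 call was lost without FUCO-2 replicate 2 (adjusted p = 0.103), without Con replicate 2 (0.0920) or 3 (0.0924), and in a fit of those 2 groups alone (0.105). Without Con replicate 1, the log2 fold change of MYC against Con was 0.59 in FUCO-2 and 0.91 in RES. All 4 comparisons share the Con libraries.

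Because the activators and repressors of the network share MAX and the E-box, their transcripts were also compared per length, as CPM per kilobase of exons in GENCODE v44. The length is that of all annotated exons of a gene merged, 6109 bases for MYC and 6873 for MXD4. The order of the genes and the ratios below depend on this choice of length. In Model MYC stood at 54.4 CPM per kilobase, MXD4 at 43.7, MXD1 at 6.40, MNT at 5.004, MAX at 4.65, MXD3 at 2.36, MYCL at 2.03, MXI1 at 1.07, TERT at 0.0870 and MYCN at 0.0266. MXD4 thus made up most of the repressor transcripts, from 61.5% of their sum in RES to 74.6% in Model. The ratio of MYC to the sum of the 5 repressors was 0.887, 0.677 and 0.662 in the Con libraries and 0.863, 0.990 and 0.944 in Model. It was 0.571, 0.606 and 0.545 in FUCO-0.5 and 0.667, 0.614 and 0.546 in FUCO-1. These 6 libraries were all below the 3 Model libraries. In FUCO-2 the ratio was 1.01, 1.35 and 0.942, overlapping with Model, and in RES it was 1.73, 1.81 and 1.55, above every other library. The sum of the repressors fell from 58.5 ± 2.36 CPM per kilobase in Model to 43.0 ± 5.47 in FUCO-2 and 34.7 ± 0.540 in RES. No test was run on the ratio, which describes RNA and not protein.

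**Figure D3:**
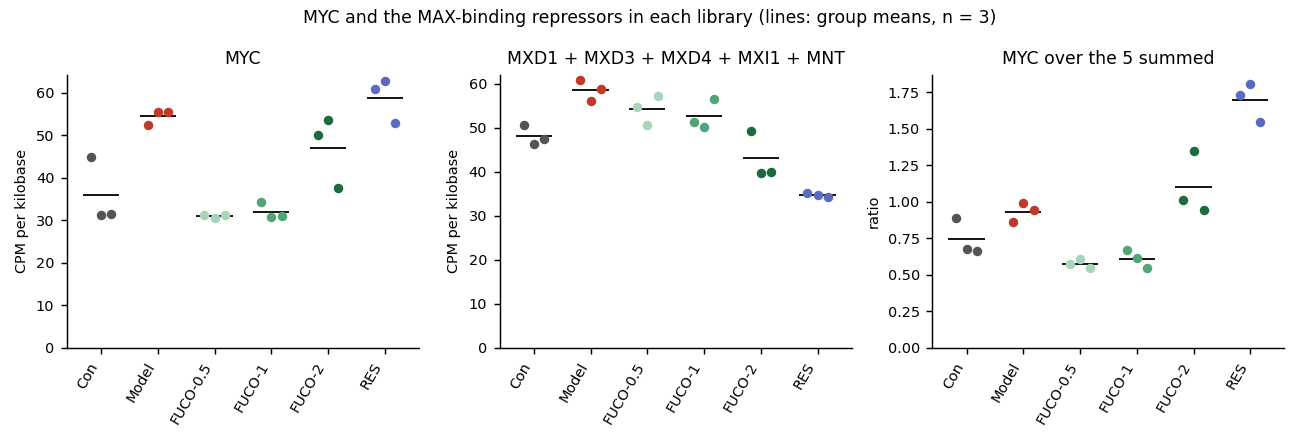
MYC, the sum of the 5 repressors (both in CPM per kilobase) and their ratio in each library (points), with group means as lines and all vertical axes from 0. The ratio is lowest in FUCO-0.5 and FUCO-1 (means 0.574 and 0.609) and highest in RES (1.70), where the repressor sum is lowest.

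TERT and MYCN were the least abundant members, and the counts of TERT were highest at 2 μM FUCO. It held 7, 11 and 15 counts in Con, 8, 16 and 4 in Model, 12, 10 and 17 in FUCO-0.5 and 11, 9 and 16 in RES. In FUCO-1 it held 20, 19 and 28 counts and in FUCO-2 48, 60 and 32. Every FUCO-1 library thus lay above every library of the 4 former groups. Every FUCO-2 library lay above every FUCO-1 library, and for its counts in FUCO-2 TERT had been selected. The levels were 0.624 ± 0.205 CPM in Con, 0.515 ± 0.343 in Model, 0.710 ± 0.218 in FUCO-0.5, 1.21 ± 0.339 in FUCO-1, 2.60 ± 0.686 in FUCO-2 and 0.558 ± 0.164 in RES.

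In FUCO-2 the fitted log2 fold change of TERT was 2.33 (SE 0.351) against Model, 1.12 (SE 0.298) against FUCO-1 and 2.05 (SE 0.340) against Con, values that are given with no test because TERT was chosen on them. The first ranged from 1.97 without Model replicate 3 to 2.97 without Model replicate 2, since the Model counts are this low. FUCO-1 against Model uses the same Model libraries as the FUCO-2 values on which TERT was chosen. Its adjusted p, in the main fit and in the alternatives, is therefore not that of an independent test. In FUCO-1 against Model the log2 fold change of TERT was 1.22 (SE 0.396, edgeR adjusted p = 0.0967) and did not pass the threshold. It passed in 3 of 24 alternatives: a fit of the 2 groups alone (adjusted p = 0.0264), no filter on low counts (0.0262) and the fit without Model replicate 2 (1.86, adjusted p = 0.0394). Against FUCO-0.5 it was 0.76 (SE 0.370, edgeR adjusted p = 0.472). With RES it was 0.12 against Model (SE 0.446, edgeR adjusted p = 0.848).

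Genes near TERT and near MYC were examined beside them. TERT lies at chr5:1253167-1295068, and CLPTM1L, a neighbouring gene on the same arm, had a log2 fold change of 0.19 in FUCO-2 against Model (SE 0.0750, edgeR adjusted p = 0.0771) and of 0.37 in RES (adjusted p = 0.000219). NKD2, an inhibitor of WNT signalling farther along that arm, rose in FUCO-2 (0.86, edgeR adjusted p = 5.64e-05) and the lysophosphatidylcholine acyltransferase gene LPCAT1 fell (-0.58, adjusted p = 6.02e-05). The amino acid transporter gene SLC6A19 had -0.18 in FUCO-2 (adjusted p = 0.144) and fell in RES (-1.73, adjusted p = 1.16e-13). MYC lies on chromosome 8 from base 127735434 to base 127742951, and PVT1 is the long non-coding RNA gene next to it. PVT1 held 72, 90 and 76 counts in Model, 90, 106 and 91 in FUCO-0.5, 109, 142 and 74 in FUCO-1 and 144, 224 and 143 in FUCO-2. All FUCO-2 libraries of PVT1 were above all Model libraries (log2 fold change 1.13, SE 0.190, edgeR adjusted p = 0.000162), in a group where MYC was not called. In RES PVT1 held 171, 104 and 124 counts and was higher than in Model too (0.49, SE 0.195, adjusted p = 0.0391), and MYC was not called there either. Of 12 tested genes near the MYC family and TERT, 2 were higher and 1 was lower in FUCO-2, against 10.8% and 9.71% of all genes, and 5 were higher and 1 lower in RES, against 24.4% and 25.1%. Without FUCO-2 replicate 3, 4 of the 12 were higher in FUCO-2.

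**Figure D4:**
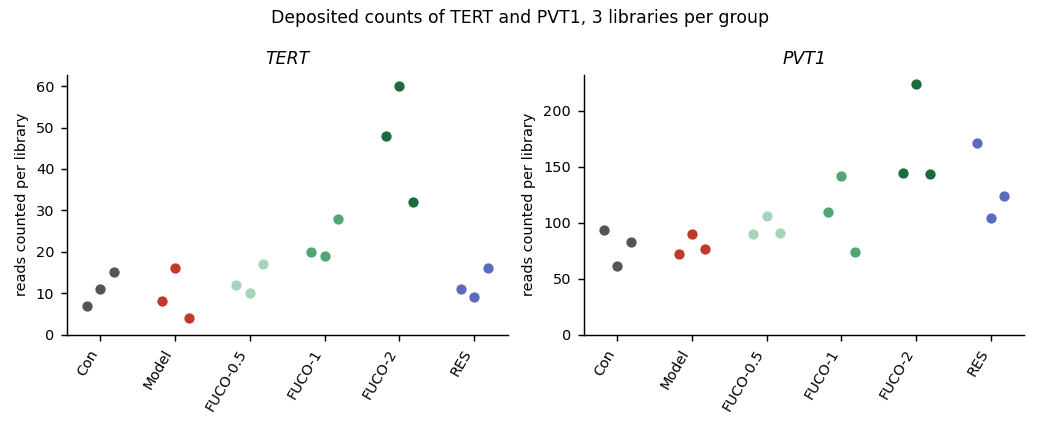
Deposited counts of TERT and PVT1 (vertical axes from 0) in each library, 3 points per group. TERT lies between 4 and 17 counts in Con, Model, FUCO-0.5 and RES, between 19 and 28 in FUCO-1 and between 32 and 60 in FUCO-2, where PVT1 also reaches 143 to 224.

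The other parts of telomerase were then read from a list of 16 genes, of which 14 were tested. TERC, the RNA template of telomerase, was listed at 0 in all 18 libraries, which were made from polyadenylated RNA. In FUCO-2 against Model 4 of the 14 were higher and 0 lower by edgeR, a median log2 fold change of 0.16 against 0.01 over all genes. They were HSP90AA1, a chaperone that helps assemble telomerase (760 ± 36.6 to 1239 ± 151 CPM, log2 fold change 0.71, SE 0.0866, edgeR adjusted p = 3.46e-06), the dyskerin gene DKC1 (0.32, adjusted p = 0.0130), the ATPase gene RUVBL1 (0.31, adjusted p = 0.00357) and the assembly factor gene NAF1 (0.28, adjusted p = 0.0329). Without Model replicate 1, or without FUCO-2 replicate 2, 2 of the 14 were higher. Of all genes, 10.8% were higher and 9.71% lower in FUCO-2. In RES 9 were higher and 0 lower, against 24.4% and 25.1% of all genes, and TERT itself was not called. In FUCO-0.5 and FUCO-1 against Model 1 gene of the list, HSP90AA1, was higher (0.34, edgeR adjusted p = 0.0474, and 0.31, adjusted p = 0.0489). Of all genes, 0.289% and 0.893% were higher in these 2 comparisons. The call of HSP90AA1 was lost in 13 of 24 alternatives in each. In Model against Con 2 genes (GAR1 and SHQ1) were higher and 2 (TEP1 and HSP90AA1) lower, against 8.43% and 9.12% of all genes. The higher ones there were 4 without Con replicate 1, 0 without Con replicate 2 or 3 or Model replicate 2, and 1 without Model replicate 3, with no filter or in a fit of the 2 groups alone, and the lower ones were 1 without Con replicate 2 or 3 or Model replicate 1 or 2. Of 13 genes of shelterin and telomere maintenance, 0 were called by edgeR with any FUCO concentration, against 10.8% and 9.71% of all genes higher and lower in FUCO-2, and in RES 3 were higher, among them TERF2IP (0.45, adjusted p = 2.83e-05) and POT1 (0.40, adjusted p = 0.000910), and 4 lower, among them DAXX (-0.45, adjusted p = 0.00170) and STN1 (-0.66, adjusted p = 0.0115). The lower ones were 2 without Model replicate 1. In Model against Con 1 was called, TERF1 (0.35, adjusted p = 0.00523).

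Of 20 tested factors known to bind the TERT promoter, 3 (15%) were higher and 1 (5%) lower in FUCO-2, against 10.8% and 9.71% of all genes. The higher ones were the ETS family genes ETV4 (34.4 ± 5.18 to 64.9 ± 8.78 CPM, log2 fold change 0.92, SE 0.119, edgeR adjusted p = 7.82e-06), ETV5 (0.51, adjusted p = 0.00125) and ETS2 (0.48, adjusted p = 0.000526). The list held further ETS family genes that were not called in FUCO-2, among them ELF3 (0.10, adjusted p = 0.602). The lower one was USF1 (-0.22, adjusted p = 0.0216), an E-box factor. With no filter, or without Model replicate 1 or 3 or FUCO-2 replicate 1, 0 factors were lower, and without Con replicate 1 the lower ones were 2. In Model against Con 2 (10%) were higher and 3 (15%) lower, against 8.43% and 9.12% of all genes. The higher ones there were ELF3 (0.48, edgeR adjusted p = 0.00921) and SP3 (0.27, adjusted p = 0.00813). The lower ones were ETV4 (-0.96, adjusted p = 4.13e-06), ETV5 (-0.37, adjusted p = 0.0173) and BHLHE40, an E-box repressor (-0.66, adjusted p = 9.75e-06). Without Con replicate 2, 1 was higher and 2 were lower. BHLHE40 was the 1 gene of the list called with FUCO-0.5 and with FUCO-1, lower in both (-0.53 and -0.42). Of all genes, 1.16% and 2.32% were lower there. With FUCO-1, 0 factors were lower without Model replicate 3 or FUCO-1 replicate 2. In RES 2 (10%) were higher and 4 (20%) lower, against 24.4% and 25.1% of all genes, and the lower ones were 2 without Model replicate 3. ETV5 rose in RES by 0.98 (edgeR adjusted p = 3.22e-08) and ETV4 was not called (0.17, adjusted p = 0.250).

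The known targets of MYC were counted in the same fit. Of 41 genes that MYC is known to induce, mostly for ribosome assembly, nucleotide synthesis and protein folding, 2 were higher and 4 lower in Model against Con, where MYC was higher, against 8.43% and 9.12% of all genes. Without Con replicate 1 the higher ones were 9, and without Con replicate 2 or 3 or Model replicate 2 they were 0, at 4 lower ones or fewer. The lower ones included the transferrin receptor gene TFRC (415 ± 68.7 to 247 ± 13.4 CPM, log2 fold change -0.75, SE 0.144, edgeR adjusted p = 0.000701) and ODC1, which makes the first polyamine (-0.31, adjusted p = 0.00501). In FUCO-0.5 against Model 0 were higher and 1 lower by edgeR, against 0.289% and 1.16% of all genes. In FUCO-1 against Model 1 was higher and 1 lower, against 0.893% and 2.32% of all genes. These small counts were unstable. The lower one in FUCO-0.5 was lost in 13 of 24 alternatives, and there were 2 with DESeq2, with no filter and with a replicate block, while DESeq2 called 1 higher. The higher ones in FUCO-1 were 10 in a fit of the 2 groups alone, 4 with DESeq2, with no filter and without Con replicate 1, 3 without FUCO-2 replicate 1, 2 without FUCO-1 replicate 3 or FUCO-2 replicate 2, and 0 without Model replicate 1 or 2 or FUCO-1 replicate 1. The lower one in FUCO-1 was lost without Model replicate 1 or 2 or FUCO-1 replicate 1 or 3. In FUCO-2 against Model, where MYC was not called, 18 of the 41 (43.9%) were higher and 0 lower, against 10.8% and 9.71% of all genes, with a median log2 fold change of 0.23. The count was 10 without Model replicate 1, 11 without FUCO-2 replicate 2, 12 without Model replicate 3 and between 17 and 21 without each other library. In RES 23 (56.1%) were higher and 2 lower, against 24.4% and 25.1% of all genes, with a median of 0.29.

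The induced targets named next were picked for their size of change among the genes called in these same comparisons. Their values therefore describe the genes picked and not the list. Most of them rose in both FUCO-2 and RES. The ribosome assembly genes RRP12 (27.5 ± 3.24 CPM in Model, 43.4 ± 8.51 in FUCO-2 and 48.2 ± 1.31 in RES) and RRS1 (15.9 ± 1.53, 21.5 ± 4.34 and 27.0 ± 1.36 CPM) were higher in FUCO-2 by 0.66 (SE 0.138, edgeR adjusted p = 0.00143) and 0.44 (SE 0.119, adjusted p = 0.0100). ODC1 rose by 0.43 in FUCO-2 (SE 0.0756, adjusted p = 0.000282) and by 1.29 in RES (SE 0.0760, adjusted p = 8.53e-13). TFRC had 0.09 in FUCO-2 (adjusted p = 0.701) and rose by 0.61 in RES (adjusted p = 0.00107). These comparisons share the Model libraries, and the genes of the list were not independent of one another.

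**Figure D5:**
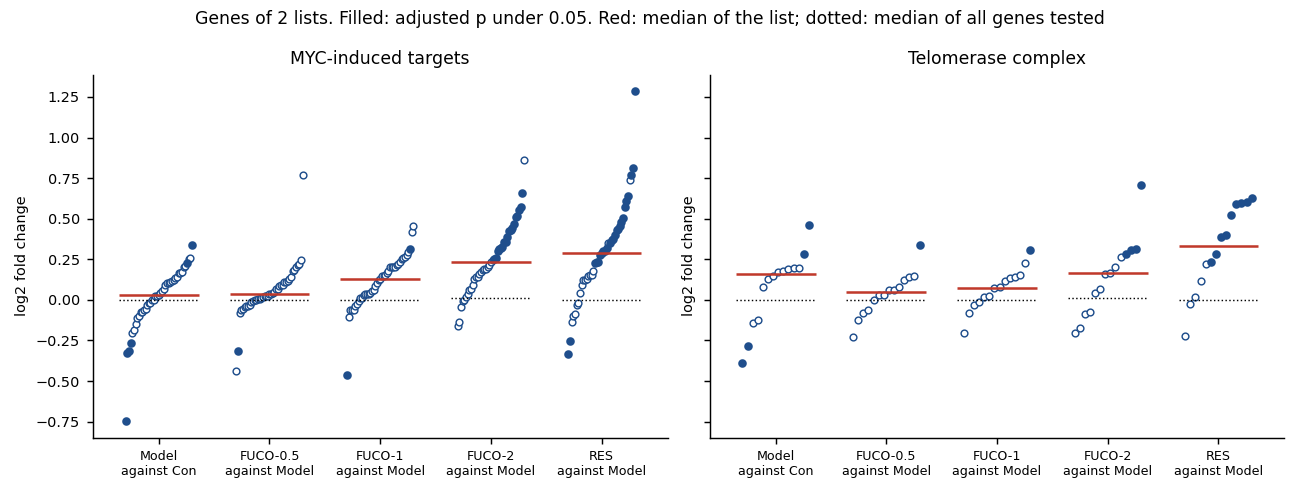
Log2 fold change (vertical axis) of each tested gene of the MYC-induced list (41 genes) and of the telomerase list (14 genes, without TERT) in the 5 comparisons, sorted within each, with filled points for an edgeR adjusted p under 0.05. Red lines are list medians and dotted lines the medians of all genes. The red line of the MYC-induced list is at 0.23 in FUCO-2 and 0.29 in RES.

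Of 18 genes that MYC is known to repress, 17 were tested. In FUCO-0.5 against Model 2 of them fell (GADD45A and GADD45B, stress genes), against 1.16% of all genes (4 with no filter or in a fit of the 2 groups alone), and in FUCO-1 3 fell (the same 2 and TXNIP), against 2.32%. In FUCO-2 1 was higher, the cell cycle inhibitor gene CDKN2B (1.20, edgeR adjusted p = 5.11e-07), and 6 (35.3%) were lower, against 10.8% and 9.71% of all genes, with a median of -0.22. The lower ones included TXNIP, an inhibitor of thioredoxin (21.1 ± 3.70 to 6.63 ± 2.88 CPM, log2 fold change -1.68, SE 0.317, edgeR adjusted p = 0.000539), and the stress gene NDRG1 (-0.72, SE 0.142, adjusted p = 0.000863). In RES 8 (47.1%) were higher and 6 (35.3%) lower, against 24.4% and 25.1% of all genes, and 5 were higher without Model replicate 1 or RES replicate 2. TXNIP rose there (1.47, edgeR adjusted p = 7.06e-05), whereas NDRG1 (-1.76, adjusted p = 5.92e-10), the matrix glycoprotein gene THBS1 (-2.63, adjusted p = 5.64e-11) and CEBPD (-0.92, adjusted p = 4.20e-05) fell. THBS1 and CEBPD had been higher in Model than in Con (0.82, adjusted p = 0.00291, and 1.44, adjusted p = 1.22e-06). In Model against Con 5 of the 17 (29.4%) were higher and 2 (11.8%) lower, against 8.43% and 9.12% of all genes.

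Cofactors of MYC and genes for its turnover formed a list of 24, all tested. In FUCO-2 7 (29.2%) were higher and 0 lower, against 10.8% and 9.71% of all genes. In RES 7 (29.2%) were higher and 5 (20.8%) lower, near the 24.4% and 25.1% of all genes, and the lower ones were 3 without Model replicate 2 or RES replicate 2. KAT2A, the acetyltransferase GCN5 that MYC recruits, fell in Model against Con (111 ± 9.61 to 80.8 ± 3.73 CPM, log2 fold change -0.46, edgeR adjusted p = 0.000214) and rose in FUCO-2 to 132 ± 11.04 CPM (0.71, SE 0.0784, adjusted p = 7.95e-07). PIM1, a kinase that acts with MYC, was higher in FUCO-2 (0.52, edgeR adjusted p = 0.00260) and RES (0.64, adjusted p = 6.76e-05). RUVBL1 and RUVBL2, which stand on this list and on the telomerase list, were higher in RES by 0.63 (adjusted p = 7.76e-08) and 0.60 (adjusted p = 0.000112). In FUCO-0.5 0 of the 24 were called by edgeR, but 1 to 3 were higher in 10 of 24 alternatives (3 in a fit of the 2 groups alone, and 2 with DESeq2 and without Con replicate 1 or FUCO-2 replicate 1), against 0.289% of all genes. In FUCO-1 1 was higher (KAT2A) and 1 lower (FBXW7, which marks MYC for degradation), against 0.893% and 2.32% of all genes. The higher ones there were 2 with DESeq2 or without Con replicate 1, and the call of FBXW7 was lost without Model replicate 1 or 2 or FUCO-1 replicate 2 or 3. The parallel network of MLX, MLXIP, MLXIPL and MGA gave 1 call in the 5 comparisons, in Model against Con, where 9.12% of all genes were lower. MLXIPL, the glucose-responsive factor ChREBP, fell from 304 ± 10.1 CPM in Con to 201 ± 16.7 in Model (-0.60, SE 0.118, edgeR adjusted p = 0.000900). In FUCO-2 0 of the 4 were called, against 10.8% and 9.71% of all genes higher and lower. In RES 0 were called, against 24.4% and 25.1%.

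The genes whose levels followed those of MYC and TERT most closely were found among 13076 genes by the Pearson correlation of log2 CPM over the 18 libraries, as a description with no p. The libraries share group, run and depth, so they are not independent points. Nearest to MYC were IER3 (r = 0.935), LIF (0.917), TCIM (0.899), PHLDA1 (0.899) and EREG (0.889), of which LIF encodes a cytokine and EREG a ligand of the EGF receptor. IER3 followed the steps of MYC, with 7.33 CPM in Con, 15.996 in Model, 6.45 in FUCO-0.5, 6.59 in FUCO-1, 12.1 in FUCO-2 and 16.3 in RES. Nearest to TERT were RASL10B (r = 0.947), the purine synthesis gene PFAS (0.872), the ribosomal RNA factor gene TCOF1 (0.864), SSH1 (0.861) and DGLUCY (0.854). PFAS stood at 47.5 CPM in Model, 60.9 in FUCO-1 and 73.0 in FUCO-2, and TCOF1, which is also among the MYC-induced targets, at 62.2, 75.5 and 92.3. Among the members, MYC followed MAX (r = 0.784) and MXD4 followed MYCL (0.778) and MXD3 (0.761), while MXD4 ran opposite to MXI1 (-0.783) and MAX to MNT (-0.718).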

How the data were processed

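The deposited file is a table of raw read counts per gene symbol. To make it, the authors enriched polyadenylated RNA and ran fastp for trimming, STAR for alignment to GRCh38.p14 and featureCounts for counting, without normalization. How strand and reads with several matches were treated is not given in the sources used here. The methods name 3 biological replicates per group in a single sequencing run, and each of the 18 libraries was placed in its group by its title. Totals ran from 16916688 to 23083498 counts, which leaves TERT and MYCN at counts where sampling error is large.

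Genes were kept with filterByExpr (minimum count 10, minimum total 15), which left 14557 genes holding 99.94% of counts, and were fitted with edgeR 4.0.16 in R 4.3.3 (TMM, quasi-likelihood, 1 term per group, prior count 0.125) with Benjamini-Hochberg adjustment over all of them. The SE was taken as the log2 fold change over the root of F. DESeq2 1.42.0, the tool of the methods, was an alternative, and the others were fits of 2 groups alone, RLE factors, no filter, at least 10 counts in every library, a replicate block, a prior count of 2, an added fold threshold and the removal of each library in turn. The fits were tested on simulated counts. The 10 members and all gene lists were chosen with earlier results of these data known. All members were named, and from each list up to 4 genes with the largest change among those called in the 5 comparisons of Model with Con or a treatment with Model, at a mean of at least 1 CPM, as well as TERC, DKC1, MLX, MLXIP, MLXIPL, MGA, PVT1 and CLPTM1L. Other list genes named beside a count were chosen after their values were seen. For MYC and TERT the 5 most correlated genes were named. Positions and promoters came from RefSeq (GRCh38.p14) and exonic lengths from GENCODE v44. Protein sequences were not used here.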

Additional observations from a re-analysis of the deposited data

How the results depend on the processing

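The calls of MYC (Model against Con, FUCO-0.5 and FUCO-1 against Model, FUCO-2 against FUCO-1), of MXD4 and MXI1 in FUCO-2 against Model, and all 5 calls in RES against Model held in all 25 alternatives. With an absolute log2 fold change over 1 required as well, 0 members remained called in each of Model against Con and FUCO-0.5, FUCO-1 and FUCO-2 against Model, and 1 (MXD4) in RES. In FUCO-1 against Model 2 members passed in a fit of the 2 groups alone and with no filter, MYC and TERT. For TERT this is not an independent test, since it was chosen on FUCO-2 values that rest on the same Model libraries. In FUCO-2 against Con 2 passed in a fit of the 2 groups alone, as against 4. Over the fits that left out a library, the members called ranged from 3 to 5 in Model against Con, 1 to 2 in FUCO-1 against Model, 1 to 4 in FUCO-2 against FUCO-1, 1 to 3 in FUCO-0.5 against Con and 2 to 7 in FUCO-2 against Con, with 7 without FUCO-2 replicate 1. The log2 fold changes that changed sign in those fits stayed uncalled: MXI1 (-0.14 to 0.16) and TERT (-0.93 to 0.0791) in Model against Con, MXD3 (-0.10 to 0.10) and MNT (-0.0511 to 0.0550) in FUCO-0.5 against Model, MYCL (-0.0683 to 0.0660), MXD3 (-0.126 to 0.0106), MXI1 (-0.0199 to 0.288) and MNT (-0.0506 to 0.05001) in FUCO-1 against Model, TERT in RES against Model (-0.25 to 0.76) and MYC in FUCO-1 against Con (-0.25 to 0.0311). The cause was not tested.

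The replicate numbers do not pair the libraries: same-numbered libraries of different groups had deviations correlated from -0.204 to 0.194 over 45 pairs, and 7 of 18 libraries correlated best with their own number. With a replicate block, MXD3 passed in FUCO-2 against Model (-0.36, edgeR adjusted p = 0.0458), and the calls over all genes were 2617 in Model against Con, 235, 510 and 3040 in FUCO-0.5, FUCO-1 and FUCO-2 against Model and 7275 in RES. Over all genes, FUCO-0.5 against Model gave 211 calls, 351 in a fit of the 2 groups alone, 354 with no filter and 110 to 290 when a library was left out. FUCO-1 against Model gave 467, 976 with the 2 groups alone and 220 to 661 when a library was left out, and Model against Con gave 2555 and 1597 to 3047. With no filter MYCN had a log2 fold change of -3.11 in Model against Con (edgeR adjusted p = 0.000343 over 24090 genes, none given by DESeq2), which rests on Con replicates 2 and 3. Depth limits TERT, at 4 to 60 counts, and MYCN, at 0 to 22.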
